A study of Mus musculus with 12 samples.

Results

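The genes followed in mouse neutrophils belong to death receptor signalling: Tnf, Tnfrsf1a, Fas, Fadd, Casp8, Cflar, Ripk1, Ripk3 and Mlkl. They were chosen by symbol, each symbol matched 1 entry, and they make up 9 of the 28987 genes in the deposited table. All 9 passed the filter on low values, set at 1 TPM (a length-corrected measure of transcript abundance) in no fewer than 3 libraries, as did 13456 genes in all. Of the 9, Fas and Tnf were called higher in peritoneal than in bone marrow neutrophils of MRP8-Bcl2 mice, as were 2.31% of all genes tested. None of the 9 was called in wild-type mice, where 1.59% of all genes tested were called higher and 1.22% lower. There Fas and Tnf also lay above the marrow range in each peritoneal library, an order held by 14.9% of all genes tested.

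Neutrophils had been sorted from the peritoneum (PT) and the bone marrow (BM) of wild-type (WT) FVB mice and of MRP8-Bcl2 FVB mice, which carry human Bcl-2 driven by the human MRP8 regulatory regions, active in myeloid cells. All mice, those that gave marrow included, had received 2 mL thioglycollate into the peritoneum, an irritant that draws neutrophils from the marrow. The labels place collection at 6 h and the methods at 4 or 8 h after injection, and the labels name macrophages as the source where the study's design and text name neutrophils. Each of the 4 groups, called here by tissue and genotype (BM WT, PT WT, and BM Bcl2 with PT Bcl2 for the transgenic mice), holds 3 RNA libraries, and the ages of the mice are not given in the sources used here. The methods have both tissues taken from each mouse, so BM and PT libraries of a genotype may share mice, but no source used here ties a library to a mouse. The fit treats the libraries as independent, and the spread between them may be partly technical.

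Tumour necrosis factor, the product of Tnf, and the Fas ligand each bind a receptor with a death domain at the cell surface. The adaptor encoded by Fadd then recruits caspase-8, which starts apoptosis by cutting other caspases, while c-FLIP, the product of Cflar, joins the same complex and restrains caspase-8. Where caspase-8 is inactive, the kinases RIPK1 and RIPK3 form a complex that activates MLKL, which breaches the plasma membrane in necroptosis. Neutrophils are short-lived cells whose ageing and death by apoptosis are well known, and Fas is among the receptors that can trigger that death. Bcl-2 blocks the mitochondrial route to apoptosis, which lies apart from the receptor complex itself.

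The neutrophil markers S100a8, S100a9, Ly6g, Csf3r, Cxcr2, Mmp9 and Retnlg were above 0 in each group, with Ly6g at 0 in library 12. Their summed level, held mostly by S100a8 and S100a9, was lower in PT (14380 to 53550 TPM in WT, 18700 to 67620 in MRP8-Bcl2) than in BM (188300 to 348400 and 76470 to 218200), and the part of this shift in the members' changes was not tested. S100a8 and S100a9 were called lower in both genotypes. Ly6g was called lower in WT, at 588 to 1266 TPM in marrow and 0 to 14.9 TPM in PT. It was not called in MRP8-Bcl2, at 51.5 to 1225 and 58.9 to 126 TPM. Csf3r of the same list went the other way, with 183 to 1038 TPM in marrow and 1839 to 2478 TPM in PT for WT. In MRP8-Bcl2 it had 132 to 816 TPM in marrow and 1974 to 4569 TPM in PT and was called higher (log2 change 3.38, limma adjusted p = 0.00673). Cxcr2 had changes of 0.88 and 1.91 that were not called. Library 9, labelled PT Bcl2, had mouse Bcl2 at 0.695 TPM, within the WT range of 0.219 to 2.37, whereas the other 5 libraries labelled MRP8-Bcl2 had 58.6 to 333 TPM. It was kept under its label. Its effect is given where it changes a call of a member or of a list gene named by the rules below. For other single genes that effect was not examined. Without library 9 the MRP8-Bcl2 changes of Tnfrsf1a, Ripk3 and Mlkl, none called, took the other sign, at -0.07, -1.24 and 0.21 on the log2 scale. Library 3 (BM Bcl2) had the lowest neutrophil sum of the marrow libraries, and library 12 (PT WT) stood apart with a mast cell sum of 645 TPM against 4.30 to 90.1 in the other libraries. TPM holds no read totals. From the spacing of low values, 1 read on a transcript of 2000 nt was estimated to be worth 0.146 to 0.686 TPM, and 3 reads on a member's longest transcript, used as the limit of detection, came to 0.121 to 2.63 TPM. These floors cover counting error alone, since the cDNA had been amplified. In such bulk samples a smaller share of cells and a lower level per cell cannot be told apart.

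Changes are given as PT less BM on log2(TPM + 1), where 1 is a 2-fold change and low genes are understated. They come from limma over all 13456 genes and 12 libraries, and a call needs both a 2-fold change and a Benjamini-Hochberg adjusted p below 0.05, or that p alone for the difference between the genotypes' changes. The median change of all genes was 0.22 in WT and -1.02 in MRP8-Bcl2, so each member's change is to be read against these values. In WT, 1.59% of all genes were called higher and 1.22% lower. In MRP8-Bcl2, 2.31% were called higher and 19.1% lower.

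Promoter sequences are shown for the 2 members called, Tnf and Fas, and for Tnfaip3 and Casp4, 2 genes of the wider list that were called in both genotypes. They are the 250 bases before the first start site in RefSeq (GRCm38.p6), 5′ to 3′ on the gene's strand, and capitals mark matches to 4 motifs searched on both strands. The motifs were the NF-kB consensus, present in 3.9% of 32851 promoter windows of this length, the AP-1 motif TGANTCA (6.75%), the TATA box letters TATAAA (12.4%) and the GC box GGGCGG (32.7%). All 9 members and 8 of the 11 list genes named by rule had an entry.
Tnf, chr17:35202008-35202257, minus strand: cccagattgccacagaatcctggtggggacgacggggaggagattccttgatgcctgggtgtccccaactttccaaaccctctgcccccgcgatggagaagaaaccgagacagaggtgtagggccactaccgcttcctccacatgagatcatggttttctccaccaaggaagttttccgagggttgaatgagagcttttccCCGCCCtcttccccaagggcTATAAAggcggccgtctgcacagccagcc
Fas, chr19:34290409-34290658, plus strand: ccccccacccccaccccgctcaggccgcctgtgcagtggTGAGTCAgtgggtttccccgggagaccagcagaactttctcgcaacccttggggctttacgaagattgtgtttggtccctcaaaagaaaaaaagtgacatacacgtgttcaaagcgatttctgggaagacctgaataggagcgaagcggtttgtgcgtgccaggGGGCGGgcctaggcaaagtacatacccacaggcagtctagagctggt
Tnfaip3, chr10:19015411-19015660, minus strand: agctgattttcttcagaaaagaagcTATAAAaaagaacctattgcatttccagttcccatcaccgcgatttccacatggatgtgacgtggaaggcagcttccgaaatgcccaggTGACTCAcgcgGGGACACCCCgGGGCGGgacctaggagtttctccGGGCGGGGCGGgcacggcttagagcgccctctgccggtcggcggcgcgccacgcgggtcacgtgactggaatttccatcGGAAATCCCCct
Casp4, chr9:5308599-5308848, plus strand: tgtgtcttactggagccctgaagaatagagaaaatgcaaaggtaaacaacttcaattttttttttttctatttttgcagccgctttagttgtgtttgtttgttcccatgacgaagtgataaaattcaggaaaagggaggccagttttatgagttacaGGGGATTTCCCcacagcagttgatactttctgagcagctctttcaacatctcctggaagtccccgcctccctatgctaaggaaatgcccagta
The Tnf window held TATAAA at 29 to 24 bases before the start and GGGCGG at 49 to 44. In the Fas window TGANTCA lay at 211 to 205 and GGGCGG at 47 to 42. Tnfaip3 had the NF-kB consensus at 125 to 116 and at 12 to 3, TGANTCA at 136 to 130, TATAAA at 225 to 220, and 3 GC boxes, of which the pair at 91 to 86 and 86 to 81 share a base. Casp4 had 2 overlapping matches to the NF-kB consensus, at 93 to 84 and 92 to 83. Among the other members, Fadd, Ripk1 and Ripk3 held GGGCGG, Cflar held TATAAA, and Tnfrsf1a, Casp8 and Mlkl held none of the 4. A match is a run of letters and does not show binding, and a window without one says nothing about the factor.

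Tnf (chromosome 17, 35199381 to 35202007, GRCm38) encodes the ligand. Its level in BM WT was 23.3, 18.4 and 23.2 TPM in libraries 4, 5 and 6, and in PT WT it was 59.8, 32.0 and 63.6 TPM in libraries 10, 11 and 12. In BM Bcl2 it was 21.1, 28.5 and 9.86 TPM in libraries 1, 2 and 3, and in PT Bcl2 64.1, 80.4 and 44.4 TPM in libraries 7, 8 and 9. Each PT library lay above every BM library of its genotype, with library 11 the lowest of PT WT and library 3 the lowest of all. The means rose from 19.8 ± 9.40 to 63.0 ± 18.0 TPM (SD, n = 3) in MRP8-Bcl2, a log2 change of 1.69 (SE 0.57, 95% interval 0.48 to 2.91, limma adjusted p = 0.0458), which was called. In WT the means were 21.6 ± 2.82 and 51.8 ± 17.3 TPM, and the log2 change of 1.17 (SE 0.57, limma adjusted p = 0.319) was not called. The call in MRP8-Bcl2 lay close to the threshold: it was lost in 13 of 22 alternative analyses, in 10 of which 1 library was left out, and without library 9 the log2 change was 1.92 with an adjusted p of 0.0513. Without library 3 it was 1.28, with an adjusted p of 0.186.

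Tnfrsf1a (chromosome 6, 125349362 to 125362484), the main receptor for TNF and one with a death domain, stood at 80.2, 106 and 37.3 TPM in BM WT and at 67.0, 144 and 127 TPM in PT WT. Its levels in MRP8-Bcl2 were 61.2, 66.6 and 43.2 TPM in BM and 35.1, 80.55 and 114 TPM in PT. The groups overlapped in both genotypes, and PT Bcl2 held both a value below the whole marrow range and a value above it. The log2 changes of 0.64 in WT and 0.29 in MRP8-Bcl2 were not called (limma adjusted p = 0.639 and 0.748).

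Fas (chromosome 19, 34290666 to 34327772), the receptor of the Fas ligand, had the largest change of the 9 in MRP8-Bcl2 and, leaving out Ripk3, which lay under the floor of 3 reads in all BM WT libraries, in WT. Fas stood at 3.75, 9.01 and 17.3 TPM in BM WT and at 45.5, 105 and 80.4 TPM in PT WT. In BM Bcl2 it was at 15.7 TPM in library 1, listed at 0 in library 2 and at 8.71 TPM in library 3, and in PT Bcl2 at 111, 67.8 and 104 TPM. The groups did not overlap in either genotype: the lowest PT value, 45.5 TPM, lay above the highest BM value, 17.3 TPM. The marrow values rest on few reads, an estimated 0 to 72 per library, against 180 to 423 in PT, and the value of 0 in library 2 stands against a floor of 1.89 TPM.

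In MRP8-Bcl2 the mean of Fas rose from 8.14 ± 7.87 to 94.2 ± 23.1 TPM (SD, n = 3), a log2 change of 4.09 (SE 0.89, 95% interval 2.20 to 5.99, limma adjusted p = 0.00704). It was called in each of 22 alternative analyses, with log2 changes of 2.87 to 5.68 and adjusted p of 0.00376 to 0.0448. Without library 9 the change was 4.01, and without library 2, where Fas is listed at 0, it was 2.87. In WT the means were 10.01 ± 6.81 and 76.9 ± 29.8 TPM, with a log2 change of 2.95 (SE 0.89, 95% interval 1.05 to 4.85, limma adjusted p = 0.094), which missed the threshold. Leaving out library 2, a BM Bcl2 library that enters only through the shared spread, gave an adjusted p of 0.0327 with the same change, and the other alternatives gave 0.0665 to 0.321. The changes of the genotypes differed by 1.15 (MRP8-Bcl2 less WT, 95% interval -1.54 to 3.83, limma adjusted p = 0.626).

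Genes of other blood cells were read beside Fas. In WT several of their sums rose with it from BM to PT. The 5 B cell markers summed to 20.6 to 79.4 TPM in marrow and 83.4 to 230 TPM in PT WT, the 8 macrophage markers to 108 to 222 and 213 to 389 TPM, the 4 eosinophil markers to 2.06 to 7.87 and 8.89 to 21.5 TPM, the 5 mast cell markers to 15.5 to 90.1 and 29.8 to 645 TPM, and the 4 peritoneal macrophage markers to 0.962 to 14.0 and 12.02 to 42.2 TPM. The B cell and eosinophil sums did not overlap between these groups. All 3 PT WT libraries lay above all 3 BM WT libraries for 14.9% of all genes. Of the tested markers of the other types, B cells left out, all 3 PT libraries lay above all 3 BM libraries for 3 of 5 mast cell genes (Cpa3, Cma1 and Mcpt4), 2 of 7 macrophage genes (Adgre1 and Csf1r), and 1 each of the peritoneal macrophage (Vsig4), eosinophil (Siglecf), T cell (Cd8a) and dendritic cell (Xcr1) genes.

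Cma1, a mast cell chymase, was the marker of another cell type called higher in PT WT, at 0, 0 and 0.39 TPM in marrow and 11.5, 12.3 and 49.4 TPM in PT (log2 change 4.19, limma adjusted p = 0.0246). Vsig4 was at 0 in BM WT and at 2.37 to 9.003 TPM in PT WT, while Gata6, which defines resident peritoneal macrophages, was at most 0.603 TPM. Siglecf was at 2.06 to 3.37 TPM in BM WT and 5.70 to 20.01 TPM in PT WT, while Epx, of the same list, was at 0 in all 12 libraries. Library 12, with the highest mast cell sum, had Fas at 80.4 TPM, between the other PT WT libraries.

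In MRP8-Bcl2 the same sums overlapped between BM and PT for B cells (17.8 to 94.6 and 34.4 to 146 TPM), macrophages (48.2 to 218 and 156 to 714 TPM), mast cells (9.38 to 21.4 and 4.30 to 47.1 TPM), peritoneal macrophages (1.78 to 25.0 and 0.677 to 25.9 TPM) and eosinophils (1.63 to 9.63 and 5.84 to 23.2 TPM). Siglecf, Ms4a1 and Xcr1 lay higher in all PT Bcl2 libraries, an order held by 5.18% of all genes. Zbtb46, of the same dendritic cell list as Xcr1, lay lower in all of them, at 1.59 to 4.05 TPM in BM and 0 to 1.4 TPM in PT. That order was held by 32.6% of all genes. None of these markers was called, while the erythroid genes Alas2 and Hba-a1 were called lower, as were 19.1% of all genes. Library 9 (PT Bcl2) had Cma1 and Mcpt4 at 0 and Vsig4 at 18.1 TPM, with Fas at 104 TPM. The B cell sums of libraries 1, 2 and 3 (BM Bcl2) were 94.6, 17.8 and 20.5 TPM, with Fas at 15.7, 0 and 8.71 TPM. Those of libraries 7, 8 and 9 (PT Bcl2) were 146, 34.4 and 46.2 TPM, with Fas at 111, 67.8 and 104 TPM. The T cell sum was 30.5 to 91.2 TPM in WT libraries and 7.27 to 177 TPM in those of MRP8-Bcl2 mice, the dendritic cell sum 4.74 to 26.9 TPM over the 12, and the erythroid sum 3.50 to 487 TPM in BM and 0 to 5.49 TPM in PT. The part of these marker genes in the change of Fas was not tested.

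**Figure D1:**
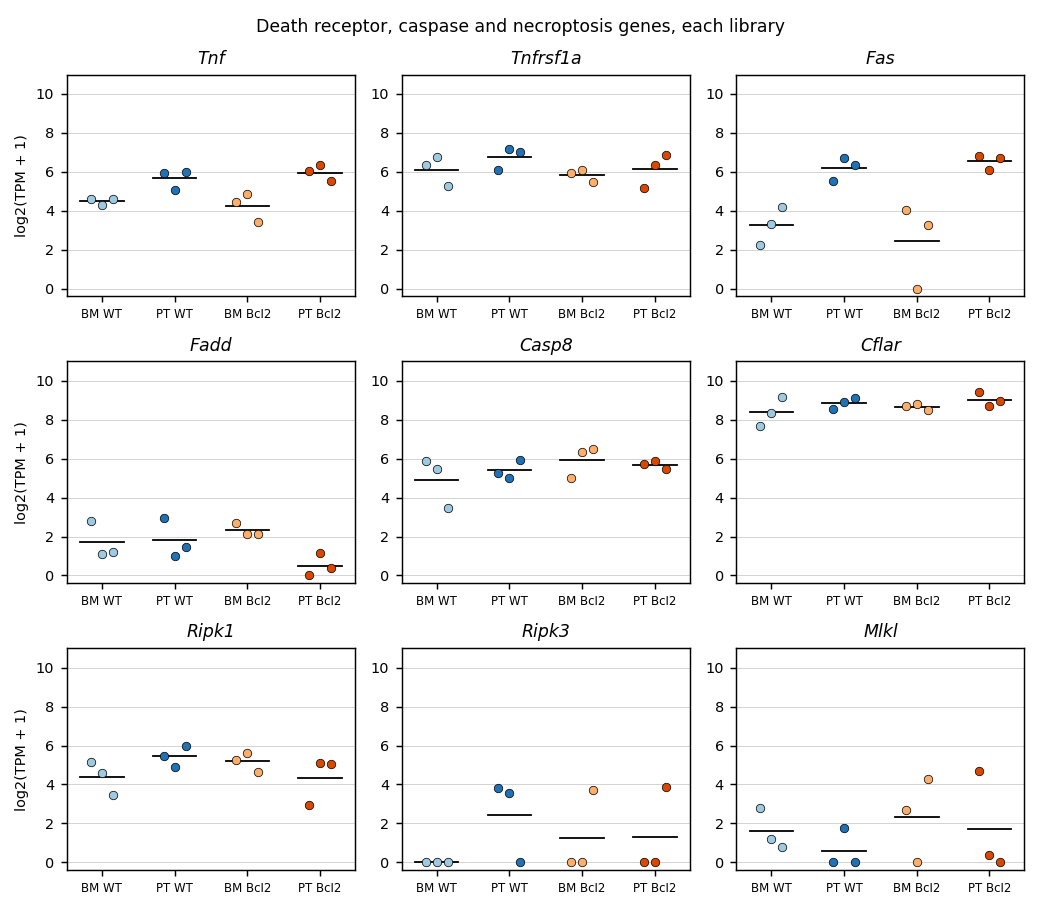
Levels of the 9 genes as log2(TPM + 1), with 1 panel per gene, 1 point per library (3 in each group) and a line at the mean of each group. Fas and Tnf lie higher in all PT libraries than in the BM libraries of the same genotype, Cflar is the highest gene in each library, and Ripk3 is near 0 in 8 of 12.

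Fadd (chromosome 7, 144577318 to 144582463), the adaptor between the receptors and caspase-8, was low in all groups. WT libraries held 5.91, 1.15 and 1.34 TPM in BM and 6.68, 1.01 and 1.80 TPM in PT, ranges that overlap. In MRP8-Bcl2 it was at 5.36, 3.31 and 3.45 TPM in BM and at 0, 1.22 and 0.28 TPM in PT, so that all PT libraries lay below the marrow. Between 0 and 96 reads stood behind these values, and libraries 7 and 9 were under the floor. The log2 change in MRP8-Bcl2, -1.81 (SE 0.73, limma adjusted p = 0.0892), was not called and stands beside a median of -1.02 over all genes. With each library centred on its median it was -0.22. Exons of Fadd overlap those of Faddos on the opposite strand, and the library kit is not stated to keep strand, so reads of the 2 cannot be told apart there.

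Casp8 (chromosome 1, 58795374 to 58847503), the initiator caspase of the receptor complex, stood at 57.7, 42.8 and 9.88 TPM in BM WT and at 37.4, 31.7 and 59.6 TPM in PT WT. Its levels in MRP8-Bcl2 were 31.0, 81.1 and 88.6 TPM in BM and 51.2, 57.9 and 43.9 TPM in PT. Groups overlapped in both genotypes, and library 6 (BM WT) was the lowest of the 12. The log2 changes of 0.48 in WT and -0.26 in MRP8-Bcl2 were not called (limma adjusted p = 0.774 and 0.802).

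Cflar (chromosome 1, 58711508 to 58758884, on the same strand as Casp8) encodes c-FLIP, the inhibitor of caspase-8, and was the most abundant of the 9 genes in each of the 12 libraries. Its level in WT was 206, 328 and 575 TPM in BM and 378, 485.5 and 553 TPM in PT. In MRP8-Bcl2 it was 415, 451 and 363 TPM in BM and 683, 419 and 496 TPM in PT. These values place it at percentiles 97.8 to 99.4 of the genes tested in a library. BM WT and PT WT overlapped, as did BM Bcl2 and PT Bcl2. The log2 changes were 0.46 in WT and 0.35 in MRP8-Bcl2, and neither was called (limma adjusted p = 0.673 and 0.605).

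Ripk1 (chromosome 13, 34002363 to 34037147) encodes the kinase shared by the survival, apoptotic and necroptotic complexes. The libraries held 34.7, 22.8 and 9.85 TPM in BM WT and 43.5, 28.6 and 61.6 TPM in PT WT, with 37.8, 48.6 and 24.1 TPM in BM Bcl2 and 6.74, 32.8 and 31.7 TPM in PT Bcl2. The ranges overlapped in both genotypes, with the lowest value in library 7 (PT Bcl2). The log2 change was 1.05 in WT and -0.83 in MRP8-Bcl2, neither called (limma adjusted p = 0.483 and 0.405). The genotypes' changes differed by -1.89 (95% interval -3.99 to 0.22, limma adjusted p = 0.336), beside a median difference of -1.18 over all genes. Exons of Ripk1 overlap a pseudogene, Gm17084, and Serpinb6a on the other strand, so some of its reads are uncertain.

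Ripk3 (chromosome 14, 55784995 to 55788865), the kinase that activates MLKL, took 1 of 2 levels. In 8 libraries it was at most 0.00154 TPM, less than 1 read. The others held 12.9 TPM in library 10 and 10.8 TPM in library 11 (PT WT), 12.3 TPM in library 3 (BM Bcl2) and 13.5 TPM in library 9 (PT Bcl2). No library lay between. All 3 BM WT libraries were at the lower level, so no fold is given for WT, where the change was not called (limma adjusted p = 0.339). The MRP8-Bcl2 groups, with 1 library of 3 at the higher level in each, differed by 0.04 (limma adjusted p = 0.986), by -1.24 without library 9 and by 1.29 without library 3. The 4 higher values rest on an estimated 18 to 86 reads, and the floors were 0.449 to 2.10 TPM.

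Mlkl (chromosome 8, 111311797 to 111338177), the executor of necroptosis, was under the floor in 6 of 12 libraries and listed at 0 in 4 of them. Its level was 5.85, 1.28 and 0.752 TPM in BM WT and 0, 2.41 and 0 TPM in PT WT. In MRP8-Bcl2 it was 5.41, 0 and 18.6 TPM in BM and 24.8, 0.296 and 0 TPM in PT. The highest value was in library 7, where Ripk3 was under 1 read, and in library 9, with Ripk3 at 13.5 TPM, Mlkl was listed at 0. The log2 changes of -1.002 in WT and -0.64 in MRP8-Bcl2 were not called (limma adjusted p = 0.742 and 0.737). Neither gene is shown to be off by a level under this floor.

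**Figure D2:**
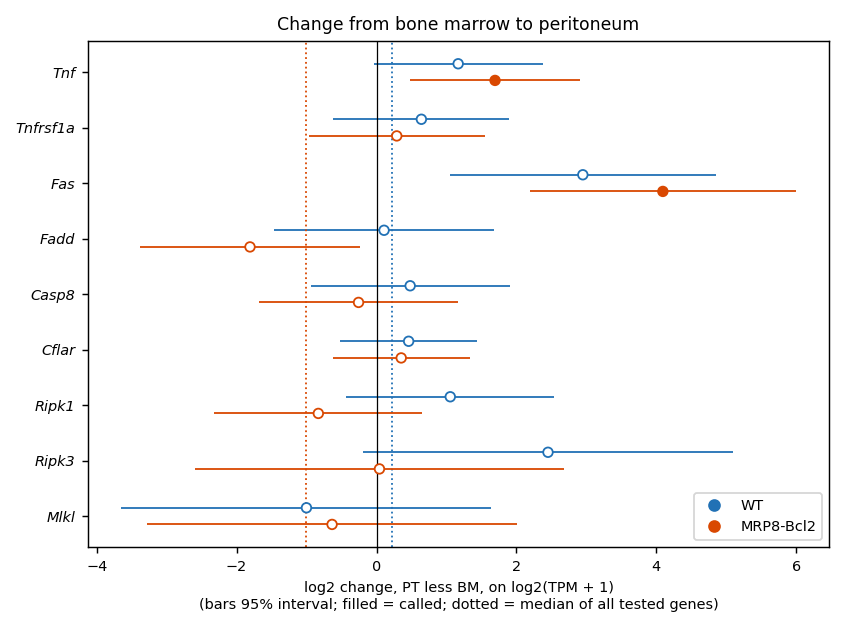
Log2 change from BM to PT of each of the 9 genes (x axis, on log2(TPM + 1)) in WT (blue) and MRP8-Bcl2 (orange), with 95% intervals. Filled points, Fas at 4.09 and Tnf at 1.69 in MRP8-Bcl2, were called, and dotted lines mark the median of all genes tested, 0.22 in WT and -1.02 in MRP8-Bcl2.

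Across the 9 genes, 8 log2 changes were above 0 in WT, with a median of 0.64, and 5 in MRP8-Bcl2, with a median of 0.04. Setting Ripk3 to its floor in BM WT left the median at 0.64. Of all 13456 genes tested, 7756 had a change above 0 in WT and 3458 in MRP8-Bcl2, with medians of 0.22 and -1.02. In WT 0 of 9 were called by limma (1 at an unadjusted p under 0.05, Fas), and in MRP8-Bcl2 2 were called higher and 0 lower (2 higher and 1 lower at an unadjusted p under 0.05). Of all genes 1.59% were called higher and 1.22% lower in WT, and 2.31% and 19.1% in MRP8-Bcl2. At an unadjusted p under 0.05, 10.2% of all genes were higher and 6.32% lower in WT, and 4.53% and 32.7% in MRP8-Bcl2. All 3 PT libraries lay above all 3 BM libraries for 2 of the 9 genes in WT, against 14.9% of all genes, and for the same 2 in MRP8-Bcl2, against 5.18%. The opposite order held for 0 of 9 in WT, against 7.97% of all genes, and for 1 of 9, Fadd, in MRP8-Bcl2, against 32.6%. With libraries centred on their medians, Tnfrsf1a (log2 change 1.88, limma adjusted p = 0.0377) and Cflar (1.94, 0.0441) were called higher in MRP8-Bcl2 too, so that 4 members were called, and the count over all genes became 1636 higher and 467 lower. Without libraries 3, 9 and 12 together, 0 members were called in WT and 1, Fas, in MRP8-Bcl2.

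No member was called in the tests between genotypes. The difference between the genotypes' changes passed for 0 of 9 (0 at an unadjusted p under 0.05), beside 0.0149% of all genes. In BM the MRP8-Bcl2 and WT libraries differed in 0 of 9 (0 at an unadjusted p under 0.05, where 6.61% of all genes were higher and 0.751% lower), beside 0.0223% of all genes. Leaving out Ripk3, the log2 differences in BM ran from -0.81 for Fas, listed at 0 in library 2, to 1.02 for Casp8. Ripk3 was under the floor of 3 reads in all BM libraries but library 3, so no fold is given for it. In PT the MRP8-Bcl2 and WT libraries differed in 0 of 9 (0 at an unadjusted p under 0.05, against 0.446% higher and 12.3% lower over all genes), beside 0.0297% of all genes, with log2 differences from -1.31 for Fadd to 1.10 for Mlkl. Both ends rest on low values: Fadd was under the floor in libraries 7 and 9, and Mlkl in all PT libraries but 7 and 11. For Fas in PT the difference was 0.34, with a 95% interval of -1.56 to 2.24, and for Cflar it was 0.16, with an interval of -0.82 to 1.14. Each member's 95% interval in these tests reached at least 2-fold in one direction.

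TPM is a share per length, so levels can be set in order. Cflar was first in each group, and its range did not meet that of the next gene. In BM WT it was followed by Tnfrsf1a, Casp8, Tnf, Ripk1, Fas, Fadd, Mlkl and Ripk3, and in BM Bcl2 by Casp8, Tnfrsf1a, Ripk1, Tnf, Fas, Mlkl, Fadd and Ripk3. Fas was sixth in both marrow groups, the third in PT WT and the second in PT Bcl2. Beyond Cflar, neighbours in these orders overlapped in range except Mlkl and Ripk3 in BM WT, Casp8 and Ripk3 in PT WT and Casp8 and Ripk1 in PT Bcl2. The order of Mlkl and Ripk3 in BM WT is not settled. Ripk3 was under the floor of 3 reads in each of these libraries, and Mlkl in library 5 (1.28 against 1.90 TPM).

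Ratios within a library do not depend on scaling between libraries. The ratio of Cflar to Fas was 55.0, 36.4 and 33.3 in BM WT and 8.31, 4.63 and 6.88 in PT WT. In BM Bcl2 it was 26.4 and 41.7 in libraries 1 and 3, with none for library 2, where Fas is at 0, and in PT Bcl2 it was 6.16, 6.19 and 4.77. All PT values thus lay below all BM values. Fas to Casp8 overlapped between BM WT (0.065, 0.211 and 1.75) and PT WT (1.22, 3.31 and 1.35), since Casp8 was low in library 6, but not between BM Bcl2 (0.507, 0 and 0.0982) and PT Bcl2 (2.17, 1.17 and 2.37). Fas to Tnfrsf1a was 0 to 0.463 over the BM libraries and 0.633 to 3.16 over the PT libraries. Cflar to Casp8 had marrow medians of 7.67 in WT and 5.57 in MRP8-Bcl2 and peritoneal medians of 10.1 and 11.3, with ranges that overlapped. No test was made on the ratios, which were chosen with the levels known.

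**Figure D3:**
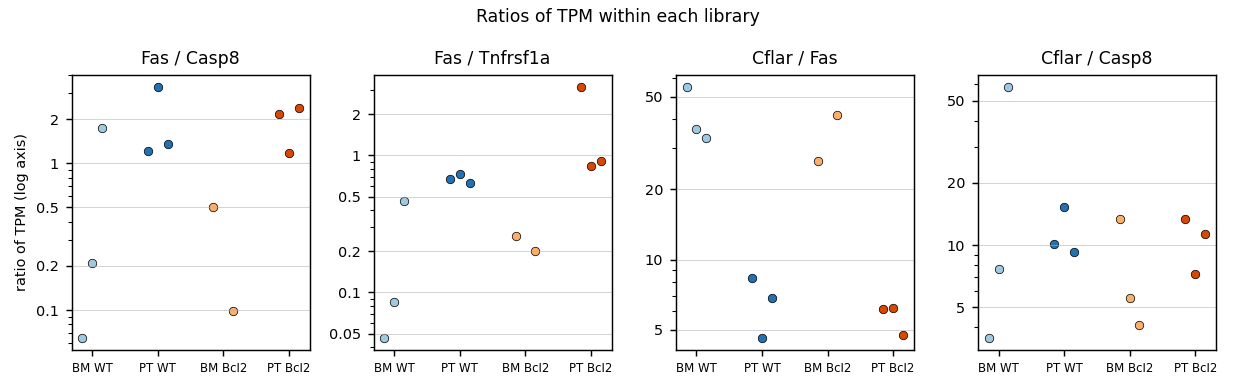
Ratios of TPM between pairs of the 9 genes within each library, on log axes, by group. Cflar to Fas lies between 26.4 and 55.0 in BM and between 4.63 and 8.31 in PT. Library 2, with Fas at 0, is not drawn in the first 3 panels.

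For each member but Tnfrsf1a, the gene with the most similar pattern over the 12 libraries was sought among 8532 genes with a mean of at least 5 TPM, by Pearson correlation of log2(TPM + 1). These were Braf for Tnf (r = 0.947), Ighm for Fas (0.933), Atp5j2 for Fadd (0.881), Luc7l for Casp8 (0.898), Spatc1 for Cflar (0.85), Arid4a for Ripk1 (0.953), Vim for Ripk3 (0.923) and Mrpl54 for Mlkl (0.897). Ighm, the heavy chain of IgM, made by B cells, stood at 59.0, 189 and 167 TPM in BM WT and 656, 554 and 1202 TPM in PT WT. It was at 150, 15.1 and 76.6 TPM in BM Bcl2 and 697, 204 and 565 TPM in PT Bcl2, and its lowest library was library 2, as for Fas. The points are libraries of 4 groups that share group, depth and composition, and each partner is the best of 8532, so the values describe these libraries only.

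The wider pathway was read in a list of 70 further genes of death receptor signalling, of which 69 were in the table and 65 passed the filter. In WT 3 were called higher (4.62% of 65) and 1 lower (1.54%), beside 1.59% and 1.22% of all genes. The median log2 change there was 0.55. In MRP8-Bcl2 5 were called higher (7.69%) and 8 lower (12.3%), beside 2.31% and 19.1% of all genes. The median there was -0.86, which did not move when 4 genes at 0 throughout PT Bcl2 were set to their floor. The same shares of all genes stand beside the counts by role below. The split in MRP8-Bcl2 depended on scaling: it was 14 higher and 1 lower with libraries centred on their medians, 9 and 4 after quantile normalization, and 6 and 6 when TPM was rescaled without the 100 most abundant genes. Of all genes these settings called 1636 higher and 467 lower, 678 and 779, and 416 and 1552 in MRP8-Bcl2. In WT the split of the list was 2 and 1 under each of these, beside 112 and 197, 233 and 264, and 170 and 175 of all genes. The list was written with earlier results of these data known, so its counts are not independent of them. The genes called higher in both genotypes were Birc3, Tnfaip3 and Casp4.

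Birc3 encodes cIAP2, a ubiquitin ligase of the TNF receptor complex that restrains death by RIPK1. In WT it was at 79.0, 208 and 99.0 TPM in BM and 697, 619 and 884.5 TPM in PT. In MRP8-Bcl2 the BM libraries held 113.5, 111 and 81.7 TPM and the PT libraries 396, 453 and 878 TPM. The lowest PT library lay above the highest BM library across both genotypes. The log2 change was 2.61 in WT (SE 0.49, limma adjusted p = 0.0118) and 2.41 in MRP8-Bcl2 (SE 0.49, limma adjusted p = 0.00543). The WT call was lost in 2 of 22 alternatives, without library 4 or 10 (adjusted p = 0.0577 and 0.0569), and the MRP8-Bcl2 call in 1, without libraries 3, 9 and 12 (0.0625).

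Tnfaip3, whose product A20 is a ubiquitin-editing inhibitor of NF-kB and of death signalling, stood at 8.25, 8.06 and 7.35 TPM in BM WT and 71.8, 43.6 and 164 TPM in PT WT. In MRP8-Bcl2 it was at 4.24, 7.30 and 6.19 TPM in BM and 230, 113 and 75.8 TPM in PT, again with no overlap. The log2 change was 3.19 in WT (SE 0.62, limma adjusted p = 0.0139) and 4.22 in MRP8-Bcl2 (SE 0.62, limma adjusted p = 0.00118). The WT call was lost in 4 of 22 alternatives, without library 4, 10 or 12 (adjusted p = 0.0549, 0.0597 and 0.0528) and without libraries 3, 9 and 12, and the MRP8-Bcl2 call in none.

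Casp4, the mouse caspase-11, senses bacterial lipopolysaccharide in the cytosol and cuts gasdermin D in pyroptosis. The WT libraries held 79.5, 139 and 51.8 TPM in BM and 590, 396 and 269 TPM in PT. Those of MRP8-Bcl2 mice held 116, 164 and 86.1 TPM in BM and 408, 349 and 420 TPM in PT, again without overlap. The log2 change was 2.24 in WT (SE 0.50, limma adjusted p = 0.0288) and 1.72 in MRP8-Bcl2 (SE 0.50, limma adjusted p = 0.0267), and the WT call was lost in 10 of 22 alternatives, all 3 rescalings among them. The MRP8-Bcl2 call was lost in 5, with adjusted p of 0.104, 0.0522 and 0.0593 without libraries 3, 8 and 9.

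**Figure D4:**
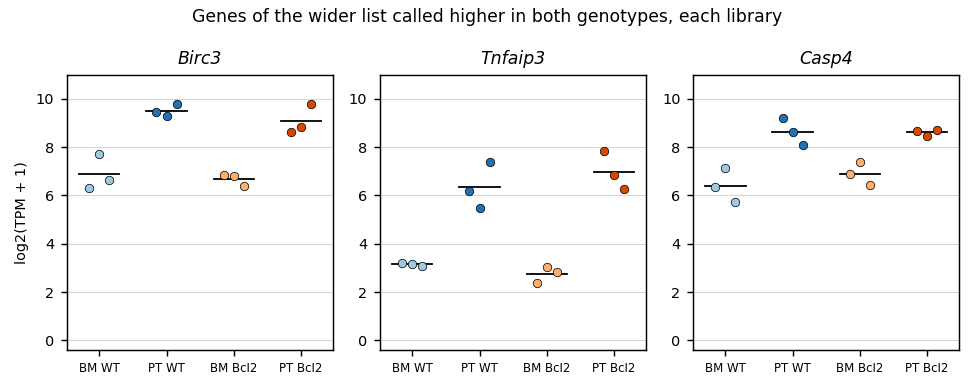
Levels of Birc3, Tnfaip3 and Casp4, the 3 genes of the wider list called higher in both genotypes, as log2(TPM + 1), with 1 point per library and a line at each group mean. All 3 are higher in PT than in BM without overlap.

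By role, 1 of 12 tested ligands and receptors was called higher and 1 lower in MRP8-Bcl2, and 0 in WT (3 higher and 1 lower at an unadjusted p under 0.05). The receptor Tnfrsf21 fell in MRP8-Bcl2 by 3.02 on the log2 scale (limma adjusted p = 0.00706), a call lost with centring on medians, and had a WT change of -1.76 that was not called. The TNF receptor without a death domain, Tnfrsf1b, named after its values were seen, was at 26.5, 30.8 and 28.1 TPM in BM Bcl2 and 234, 123 and 81.9 TPM in PT Bcl2, a called log2 change of 2.19 (limma adjusted p = 0.0177), with 1.96 in WT that was not called (0.0885). The ligand Tnfsf14, also known as LIGHT, had log2 changes of 2.45 in WT and 2.38 in MRP8-Bcl2 that were not called (limma adjusted p = 0.143 and 0.0558).

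Of 14 adaptors and ubiquitin ligases, Birc3 was called in WT, and Birc3 and Traf1 were called higher and 2 lower in MRP8-Bcl2. Traf1, an adaptor of TNF receptors, was at 1.10, 3.30 and 1.68 TPM in BM Bcl2 and 58.3, 80.6 and 16.3 TPM in PT Bcl2, a log2 change of 3.92 (SE 0.94, limma adjusted p = 0.0113), against 2.57 in WT, which was not called (0.174). The 2 lower genes, named after their values were seen, were Sharpin, part of the linear ubiquitin ligase (log2 change -2.72), and Faim, which was at 0 in each PT Bcl2 library. Of 15 deubiquitinases and kinases, Tnfaip3 was called higher in both genotypes, and Tab1, named after its values were seen and at 0 in each PT Bcl2 library, was lower in MRP8-Bcl2. Tnip1, which binds A20, had log2 changes of 1.86 and 1.87 that were not called.

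Among 16 caspases and partners, 1 was called higher and 1 lower in WT, and 1 higher and 3 lower in MRP8-Bcl2. Of the lower genes, 2 named after their values were seen were Apaf1, the scaffold of the apoptosome, at 48.6, 72.8 and 166 TPM in BM Bcl2 and 11.6, 2.17 and 26.7 TPM in PT Bcl2 (log2 change -3.04, limma adjusted p = 0.0264), and Dffb, the nuclease that cuts DNA in apoptosis, at 7.88 to 15.8 TPM in BM Bcl2 and listed at 0 in PT Bcl2. Htra2, a mitochondrial protease, had log2 changes of -2.10 and -2.86 that were not called, and its exons overlap Aup1 and Loxl3 on the other strand.

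Of 8 necroptosis regulators 0 were called in WT (0 at an unadjusted p under 0.05) and 1 was called lower in MRP8-Bcl2. This was Pgam5, a mitochondrial phosphatase, which fell by 3.17 on the log2 scale (limma adjusted p = 0.0404), a call lost in 13 of 22 alternatives. Ppm1b, a phosphatase that acts on RIPK3, had a log2 change of 0.97 in WT and -3.07 in MRP8-Bcl2, neither called (limma adjusted p = 0.721 and 0.0618), though without library 9 the second was -4.03 and called (0.0294). The difference between the genotypes' changes passed for 0 of 65 list genes (0 higher and 12 lower, or 18.5%, at an unadjusted p under 0.05, where 0.364% of all genes were higher and 16.6% lower).

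**Figure D5:**
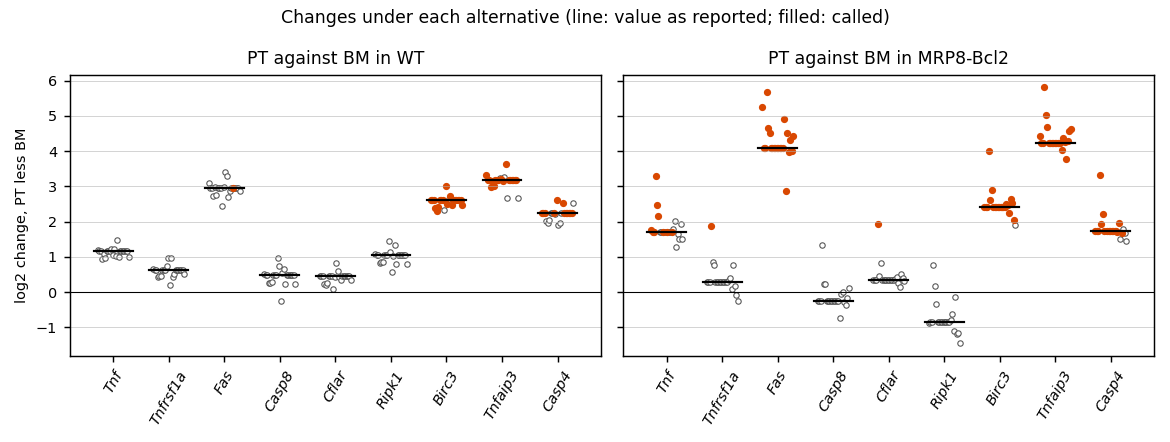
Log2 change from BM to PT of 6 of the 9 genes and of the 3 list genes called higher in both genotypes, under each alternative analysis (points, filled where called) and as reported (line), in WT and MRP8-Bcl2. Fas is called throughout in MRP8-Bcl2, at 2.87 to 5.68.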

How the data were processed

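RNA was amplified from sorted cells with NuGen's Ovation V2 kit, made into libraries with a NEBNext Ultra kit and sequenced on an Illumina HiSeq as 2 × 75 nt reads, per the study's methods. The authors ran AltAnalyze at default values and deposited log2(TPM + 1) per gene for 12 libraries; the aligner, version and genome build are not given in the sources used here. Their averages and comparison statistics were not used, nor were 2 columns of per-sample values that no label ties to a sample. Values were turned back into TPM, and genes reaching 1 TPM in 3 or more libraries were fitted with limma 3.58.1 (eBayes with trend, pseudocount of 1, 8 residual degrees of freedom) in R 4.3.3. No counts across the 12 libraries were used, so no count test was run.

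The 9 genes, the pathway list and the marker lists were chosen with earlier results of these data known. List genes were named where called in both genotypes, or among the 2 of each role with the largest mean change. Some genes that these rules name are not reported here. A simulation drew 13456 genes around their means over the 12 libraries and changed 200 of them in PT WT alone. In the WT comparison limma called 46 of 77 genes given a log2 change of 4, 0 of 67 given 2, 1 of 56 given 1, and 1 unchanged gene, so a gene that was not called may still differ. These rates do not carry over to MRP8-Bcl2, where 311 genes were called higher and 2567 lower, since the adjusted p depends on how many genes change. Depth was estimated on 5021 genes with 1 transcript in GENCODE M21 (GRCm38): between 65.1 and 74.5% of low values lay within 0.15 of a whole read, where chance gives 30%, and these genes held 64511 to 313372 reads per library. Loci are those of GENCODE M21. Alternatives changed the pseudocount, filter, scaling, samples fitted, trend and threshold, and left out each library. Leaving out libraries 3, 9 and 12 together was added after the data were seen.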

Additional observations from a re-analysis of the deposited data

How the results depend on the processing

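The number of members called in WT, 0, was 0 to 1 with single libraries left out, the 1 being Fas without library 2, and 0 otherwise. In MRP8-Bcl2, where 2 were called, the number was 4 with libraries centred on their medians, 1 in a fit of only the groups compared, 1 without the trend, 1 without libraries 3, 9 and 12, and 1 to 2 with single libraries left out (1 without each library but 6 and 12). Of the wider list, 4 genes were called in WT, 1 to 5 with single libraries left out (1 without library 4 or 10), and 2 without libraries 3, 9 and 12. In MRP8-Bcl2 13 were called, 7 to 17 with single libraries left out (7 without library 3), and 7 without libraries 3, 9 and 12. Counts over all genes moved too. In WT 214 were higher and 164 lower, with 60 and 54 without library 4, 40 and 50 without library 10, and 81 and 80 without libraries 3, 9 and 12. In MRP8-Bcl2 311 were higher and 2567 lower, with 150 and 1072 without library 3 and 145 and 910 without libraries 3, 9 and 12. A fit of only the groups compared gave 203 and 1903 there, and one without the trend 282 and 2594. The tests between genotypes called 0 members under each alternative run. Of 1460 values of single genes under an alternative, 1392 kept their side of the threshold, 49 calls were lost, 19 were gained, and no called value changed sign. The sign changed in 61 values that were not called. The cause of these shifts was not tested. No paired analysis was possible because the library columns carry no mouse or replicate number. Depth limits Ripk3, under the floor of 3 reads in 8 of 12 libraries, and Mlkl, Fadd and marrow Fas, each under or near it in some.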
